A study of Mus musculus with 6 samples.

Results

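The serum response factor SRF and its main partner proteins are encoded here by 6 genes: Srf itself, the ternary complex factor genes Elk1, Elk3 and Elk4, and the myocardin-related transcription factor genes Mkl1 and Mkl2 (also named Mrtfa and Mrtfb). They were chosen by name, and all 6 had a row among the 32973 rows of the deposited expression table. The table holds 6 RNA-seq libraries of primary mouse muscle stem cells, which carry the transcription factor PAX7 and rebuild damaged muscle fibres. After sorting by flow cytometry, the cells spent 3 days on collagen in F10 medium that held fetal serum and the growth factor bFGF. Control cells (Ctrl, 3 libraries) had the genotype Med23flox/flox, with loxP sites flanking both copies of Med23. Knockout cells (Med23KO, 3 libraries) had the genotype Med23flox/flox::Pax7CreERT2, in which the Pax7 gene drives a Cre recombinase that tamoxifen activates. The labels list no treatment for either group and give no age, and tamoxifen is not named in the sources used here. No group carried Cre without the loxP-flanked alleles, so effects of Cre and of losing Med23 cannot be told apart. Whether each library is a separate animal or culture is not stated, and the spread that p-values measure is that between these libraries, which may be technical.

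SRF binds a short DNA element, the CArG box, in the promoters of immediate-early, cytoskeletal and muscle genes. It acts with either of 2 families of cofactor. The ternary complex factors ELK1, ELK3 and ELK4 have an ETS domain, bind DNA beside SRF and are phosphorylated by the Ras-ERK kinases after growth factors act on a cell. The MRTFs bind monomeric actin, and they move to the nucleus and join SRF when actin is drawn into filaments. MED23, a subunit of the Mediator complex, through which DNA-bound factors reach RNA polymerase II, is the known Mediator contact of phosphorylated ELK1. In skeletal muscle SRF is known for its role in actin gene expression and fibre growth.

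Each of the 6 genes had a lower mean in Med23KO than in Ctrl, but 0 of 6 passed the test (limma, Benjamini-Hochberg adjusted over 12336 tested genes, threshold 0.05), against 2.91% of all tested genes. At an unadjusted p under 0.05, 2 of the 6 were lower, Mkl1 and Mkl2. Over all tested genes 19.7% reached that level in either direction and 10.9% with knockouts lower. The median log2 fold change of the 6 was -0.24, beside -0.03 over all tested genes. Of all tested genes, 54.9% lay below 0. Levels are FPKM, fragment numbers adjusted for the length of the transcript and the size of the library, and every log2 fold change is on the log2(FPKM + 1) scale, which understates the change of low genes. The depth of the libraries is unknown. Summed FPKM ran from 697886 to 746973 in Ctrl and from 599738 to 675095 in Med23KO. Of this, 1 row, the RNA gene Rmrp, held 225416 to 239590 FPKM in Ctrl and 173041 to 205244 FPKM in Med23KO. The part of this difference in the fold changes was not tested. In these bulk cultures fewer cells of a type and less RNA per cell cannot be told apart.

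Med23 itself, which the design deletes, had 10.4, 11.7 and 10.2 FPKM in Ctrl replicates 1, 2 and 3 and 5.10, 5.86 and 4.23 FPKM in the 3 Med23KO replicates. No knockout library of Med23 reached a control value (log2 fold change -0.96, SE 0.133, limma adjusted p = 0.0197), and this call was lost in 5 of the 6 fits that left out 1 library. Over all tested genes the calls were 184 rises (51.3%) and 175 falls. With libraries scaled to equal medians there were 363 rises (63.9%) and 205 falls. Single libraries moved these counts: there were 3 rises and 10 falls without Med23KO replicate 2. With Med23KO replicate 3 left out instead, 754 rose and 400 fell. Leaving out Ctrl replicate 1 gave 47 rises and 44 falls, Ctrl replicate 2 gave 6 and 17, Ctrl replicate 3 gave 26 and 45, and Med23KO replicate 1 gave 16 and 39. Of 8 muscle stem cell and myoblast markers 7 were tested, with 0 called, 3 below 0 and 4 above 0, and their summed level was 1057 to 1651 FPKM in Ctrl and 857 to 1429 FPKM in Med23KO. Pax7 had 46.2 ± 11.6 and 48.6 ± 14.4 FPKM in Ctrl and Med23KO, and Myod1 948 ± 235 and 787 ± 213 FPKM (SD, n = 3 each). Itga7, an integrin gene of these cells, had 98.5 ± 17.2 and 58.1 ± 6.96 FPKM with no overlap (limma adjusted p = 0.0515), and Cdh15, the M-cadherin gene, 18.2 ± 4.57 and 32.0 ± 10.2 FPKM with overlap (limma adjusted p = 0.168; SD, n = 3 each). The part of these markers in the results on SRF targets was not tested.

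The 6 genes were expressed at moderate levels. In controls the order was Elk3, Elk4, Srf, Mkl2, Mkl1 and Elk1, with means of 37.9, 34.0, 22.4, 15.2, 13.0 and 9.19 FPKM. The order of the means was the same in knockouts, at 33.4, 30.1, 17.6, 11.0, 10.4 and 8.65 FPKM. The control ranges of Elk3 and Elk4 overlapped, although Elk3 was the higher in each control library. Those of Mkl2 and Mkl1 overlapped too, with Mkl1 the higher in Ctrl replicate 1, so their order was not the same in each control library. Elk4 lay above Srf, Srf above Mkl2 and Mkl1 above Elk1 in all control libraries, with Srf at 17.2 FPKM or more and Mkl2 at 16.7 FPKM or less. Elk3 stood above 84.1% of the tested genes by its control mean, Srf above 72.0% and Elk1 above 44.7%.

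**Figure D1:**
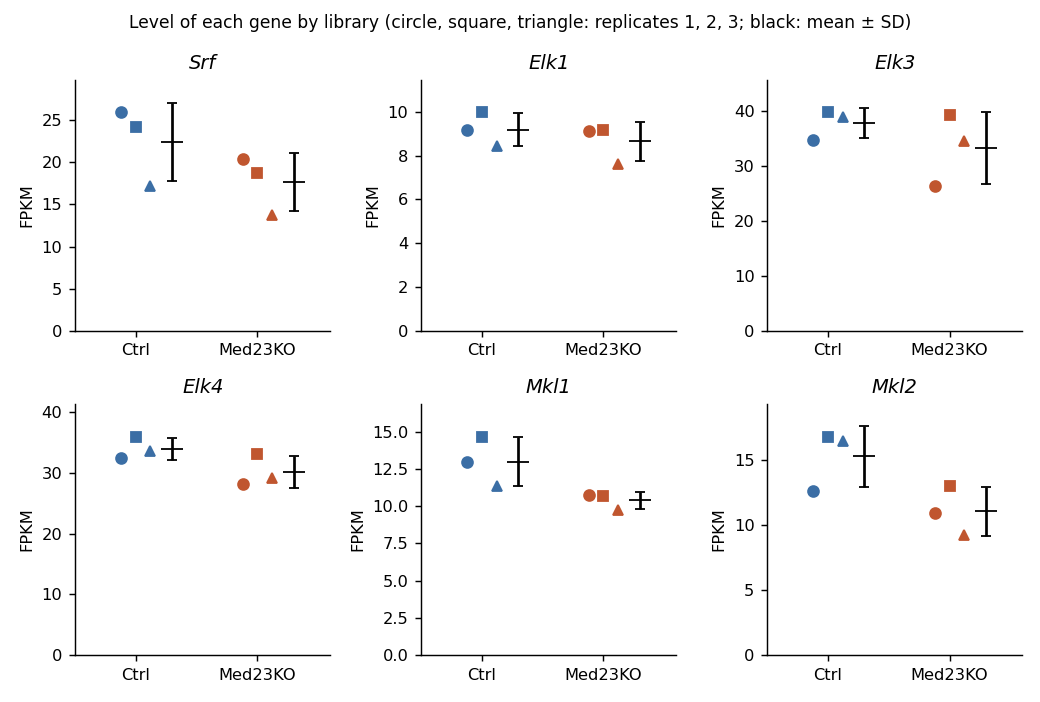
FPKM of each of the 6 genes (vertical axes, from 0) in the 3 Ctrl and 3 Med23KO libraries, with the mean and SD in black and the marker shape giving the replicate number. The groups overlap for 5 genes, and the 3 knockout values of Mkl1, between 9.74 and 10.8 FPKM, lie below the 3 control values.

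Srf lies on mouse chromosome 17, at positions 46548329 to 46556175 of mm10 on the minus strand (ENSMUSG00000015605.6). The promoter of Srf is shown because it holds the element that SRF itself binds. The RefSeq window of 300 bases around its start (250 before, 50 after; build GRCm38.p6, which is mm10) holds 2 CArG boxes, the first bases of which lie 82 and 62 bases before the start. Dusp5, an immediate-early gene that encodes an ERK phosphatase, is set beside it because it had the smallest adjusted p of the SRF target lists described further on. The window of Dusp5 also holds 2 boxes, 82 and 72 bases before the start, with no base between them. Both stretches are the 150 bases before the RefSeq start, 5′ to 3′ on the gene's strand, with the CArG boxes in capitals: chr17:46556163-46556312 on the minus strand for Srf and chr19:53528995-53529144 on the plus strand for Dusp5.
Srf: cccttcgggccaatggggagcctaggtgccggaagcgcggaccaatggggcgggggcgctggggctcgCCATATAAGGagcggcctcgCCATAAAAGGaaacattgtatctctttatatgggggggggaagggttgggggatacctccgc
Dusp5: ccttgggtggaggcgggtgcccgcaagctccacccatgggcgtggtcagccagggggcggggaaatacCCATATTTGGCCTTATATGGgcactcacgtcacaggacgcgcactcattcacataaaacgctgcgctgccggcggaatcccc

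The promoter windows of the other members held no CArG box: 1 of 6 members had one, Srf, against 1.70% of the 8901 tested genes that matched a RefSeq window. The match of the CArG box on one strand is also a match on the other. The core CCGGAA of many ETS sites was found, on either strand, in a window of Srf, Elk4 and Mkl2, 3 of 6 members, against 33.4% of the matched tested genes. In Srf it lies 122 bases before the start, within the stretch printed above.

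In Ctrl replicates 1, 2 and 3 the level of Srf was 25.95, 24.2 and 17.2 FPKM. In the Med23KO replicates, in the same order, it was 20.4, 18.8 and 13.8 FPKM. Ctrl replicate 3 lay below Med23KO replicates 1 and 2, so the groups overlapped. Control and knockout means were 22.4 ± 4.65 and 17.6 ± 3.46 FPKM (SD, n = 3), so the knockout mean was 78.6% of the control mean. Its log2 fold change was -0.33 (SE 0.195, 95% interval -0.78 to 0.13, limma adjusted p = 0.413). By exact permutation (two-sided) p was 0.3, where 3 against 3 libraries cannot go below 0.1. With 1 library left out, the log2 fold change of Srf ran from -0.50 without Ctrl replicate 3 to -0.17 without Med23KO replicate 3.

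Among the ternary complex factor genes the groups overlapped for each of the 3. Elk1 (chromosome X, 20933395 to 20950608, minus strand), the factor with the known MED23 contact, had 9.16, 9.98 and 8.44 FPKM in the Ctrl replicates. It had 9.13, 9.19 and 7.63 FPKM in the Med23KO replicates, so 2 knockout values lay within the control range. Its log2 fold change was -0.08, the smallest of the 6 (SE 0.119, 95% interval -0.36 to 0.20, limma adjusted p = 0.776). The protein and its phosphorylation were not measured here.

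Elk3 encodes a factor also known as NET, which can repress as well as activate its targets (chromosome 10, 93247414 to 93311135, minus strand). It had 34.8, 39.8 and 39.02 FPKM in the Ctrl replicates and 26.3, 39.3 and 34.5 FPKM in the Med23KO replicates. Med23KO replicate 1 was the lowest library, and replicate 2 lay among the controls. The log2 fold change was -0.19 (SE 0.152, 95% interval -0.55 to 0.16, limma adjusted p = 0.552), and -0.04 without Med23KO replicate 1. Elk4 encodes SAP1, the other close relative of ELK1 (chromosome 1, 132007607 to 132032612, plus strand). It had 32.5, 36.0 and 33.6 FPKM in the Ctrl replicates and 28.2, 33.1 and 29.2 FPKM in the Med23KO replicates. Only Med23KO replicate 2 reached into the control range of Elk4. Its log2 fold change was -0.17 (SE 0.101, 95% interval -0.41 to 0.06, limma adjusted p = 0.410).

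By summed FPKM the ternary complex factors had 81.1 ± 4.68 in controls and 72.2 ± 9.02 in knockouts (SD, n = 3). The groups overlapped, with Med23KO replicate 2 at 81.6 FPKM and the controls at 76.4 to 85.8 FPKM. Elk3 made up 46.7% ± 1.33 of that sum in controls and 46.0% ± 3.98 in knockouts (SD, n = 3). Elk4 made up 42.0% ± 0.526 and 41.9% ± 2.04, and Elk1 11.3% ± 0.825 and 12.1% ± 1.97 (SD, n = 3). Elk1 was thus the smallest part of the family's transcripts in both groups, and the shares differed between groups by less than their spread.

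The MRTF genes had 2 of the 3 most negative log2 fold changes among the 6 genes. Mkl1 encodes MRTF-A (chromosome 15, 81012281 to 81190757, minus strand). It had 13.0, 14.7 and 11.3 FPKM in the Ctrl replicates and 10.8, 10.7 and 9.74 FPKM in the Med23KO replicates. Mkl1 was the 1 gene of the 6 whose groups did not overlap, with knockouts lower. Over all tested genes the groups did not overlap in 24.7% in either direction, and in 14.7% with knockouts lower. Control and knockout means were 13.0 ± 1.66 and 10.4 ± 0.577 FPKM (SD, n = 3), a knockout mean at 80.1% of the control mean. Its log2 fold change was -0.29 (SE 0.12, 95% interval -0.57 to -0.01, limma adjusted p = 0.240). By exact permutation (two-sided) p was 0.1, which is as low as 3 against 3 can give.

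Mkl2 encodes MRTF-B (chromosome 16, 13256481 to 13417529, plus strand). It had 12.6, 16.7 and 16.4 FPKM in the Ctrl replicates and 10.9, 12.9 and 9.24 FPKM in the Med23KO replicates. Ctrl replicate 1 lay just below Med23KO replicate 2, and the other control values lay above all knockout values. Control and knockout means were 15.2 ± 2.32 and 11.0 ± 1.85 FPKM (SD, n = 3), a knockout mean at 72.3% of the control mean. Its log2 fold change of -0.44 was the most negative of the 6 (SE 0.158, 95% interval -0.81 to -0.07, limma adjusted p = 0.187). The summed MRTF level was 25.5, 31.4 and 27.7 FPKM in the Ctrl replicates and 21.6, 23.6 and 19.0 FPKM in the Med23KO replicates. There was no overlap between the groups of this sum. For single genes, 14.7% of all tested genes did not overlap with knockouts lower. In the authors' deposited table the q-values of the 6 genes ran from 0.112 for Mkl1 to 0.798 for Elk1.

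**Figure D2:**
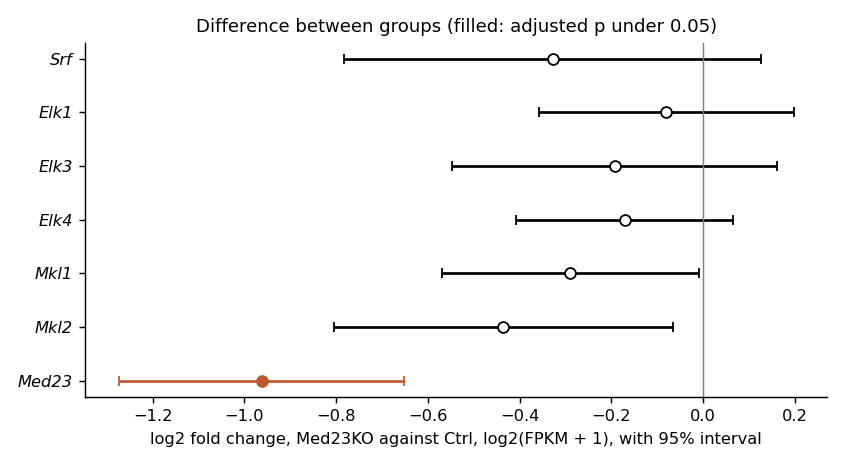
Log2 fold change of Med23KO against Ctrl on the log2(FPKM + 1) scale (horizontal axis) with its 95% interval from limma, for the 6 genes and Med23. The point of Med23, at -0.96, is the single one past the threshold, and the intervals of Mkl1 and Mkl2 end just below 0.

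Across libraries the 6 genes did not follow 1 pattern. Srf was lowest in replicate 3 of each group, at -0.18 in Ctrl and -0.48 in Med23KO relative to its mean over the 6 libraries (log2). The median level of all tested genes was also lowest in these libraries. It was 11.07, 11.06 and 10.41 FPKM in the Ctrl replicates and 11.19, 11.00 and 9.78 FPKM in the Med23KO replicates. The part of this shift in the Srf profile was not tested. Elk3 was lowest in Med23KO replicate 1, at -0.41, and Mkl2 in Med23KO replicate 3, at -0.44. Of the other 5 genes, Mkl1 had the profile nearest to that of Srf, with a root-mean-square difference of 0.17 (log2, over 6 libraries), and Elk3 the farthest, at 0.35. Elk1 and Elk4 differed by 0.11. Among 8821 other genes that averaged 5 FPKM or more, the 5 profiles nearest to Srf were those of Khsrp, an RNA-binding protein gene, Plekhg5, a guanine nucleotide exchange factor gene, Vars, the valyl-tRNA synthetase gene, Slc25a28, a mitochondrial iron carrier gene, and Capn15, a calpain gene, with differences from 0.04 to 0.05.

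**Figure D3:**
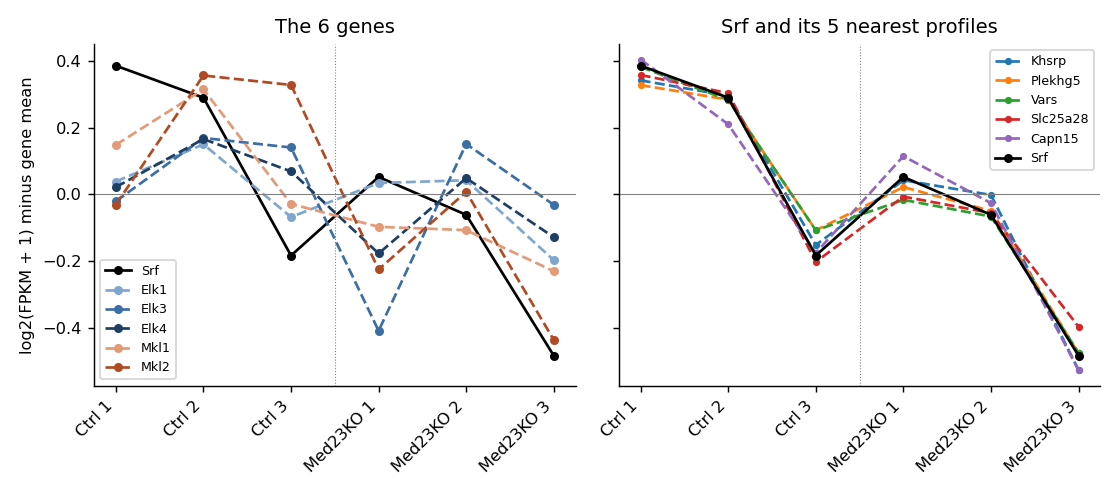
Level of each gene in each library as log2(FPKM + 1) minus the gene's mean over the 6 libraries, for the 6 genes (left) and for Srf with its 5 nearest profiles (right). Srf and its neighbours are lowest in Med23KO replicate 3, while Elk3 is lowest in Med23KO replicate 1.

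Immediate-early genes listed as targets of SRF with ternary complex factors were uneven. Of 18 tested genes of the list, 4 fell and 1 rose, against 1.42% and 1.49% of all tested genes, and 12 lay below 0. The list median was -0.33. The groups of 10 genes did not overlap with knockouts lower, and those of 2 with knockouts higher, against 14.7% and 10% of all tested genes. The zinc-finger transcription factor gene Egr1 had 53.2, 38.8 and 25.8 FPKM in the Ctrl replicates and 6.69, 5.52 and 3.93 FPKM in the Med23KO replicates. Every knockout value of Egr1 lay far below the lowest control value, and it fell by 2.62 on the log2 scale (SE 0.269, limma adjusted p = 0.0101). Its relative Egr3 had 12.03, 13.3 and 9.93 FPKM and 4.04, 3.85 and 2.87 FPKM in the Ctrl and Med23KO replicates (log2 fold change -1.48). Dusp5 had 21.2, 21.7 and 16.2 FPKM and 6.35, 5.86 and 6.77 FPKM (limma adjusted p = 0.00676, log2 fold change -1.49, SE 0.137). The AP-1 gene Junb fell from 64.3 ± 8.88 to 40.4 ± 1.47 FPKM (SD, n = 3).

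Fos and Mcl1, of the same class, overlapped between the groups, while Ier2 and Egr2 lay lower without overlap and were not called. Fos, which encodes the AP-1 subunit whose promoter gave the serum response element its name, had 4.43, 3.94 and 3.06 FPKM in the Ctrl replicates and 5.99, 3.58 and 2.60 FPKM in the Med23KO replicates. The knockout values of Fos spanned a wider range than the controls on both sides (log2 fold change 0.03, limma adjusted p = 0.972), and the sign turned to -0.03 under quantile normalization. The survival gene Mcl1 had 67.5 ± 3.55 and 66.2 ± 4.403 FPKM (SD, n = 3), a log2 fold change of -0.03 that was 0.04 under quantile normalization. The immediate-early gene Ier2, at 40.4 ± 8.39 and 22.6 ± 2.63 FPKM (SD, n = 3), was not called (limma adjusted p = 0.0534), and it was past the threshold without Ctrl replicate 3 or Med23KO replicate 3. Egr2 had 1.92 ± 0.136 and 1.26 ± 0.115 FPKM (limma adjusted p = 0.182). Btg2, which slows cell division, was the gene that rose, from 11.97 ± 1.01 to 21.4 ± 1.73 FPKM (SD, n = 3). The call of Dusp5 was lost without Med23KO replicate 2 (limma adjusted p = 0.0546), and those of Egr1 and Egr3 without that library (0.0710 each) or without Ctrl replicate 2 (0.0773 each). Junb and Btg2 kept their calls only without Med23KO replicate 3 among the 6 fits that left out 1 library, and with no filter on low values Junb was not called (0.0627).

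Cytoskeletal genes listed as targets of SRF with MRTFs split in both directions. Of 28 tested, 2 rose and 0 fell by the limma test, against 1.49% and 1.42% of all tested genes. Of the 28, 16 (57.1%) lay below 0, near the 54.9% of all tested genes, and the median was -0.19. The groups of 8 genes did not overlap with knockouts lower, and those of 5 with knockouts higher, against 14.7% and 10% of all tested genes. Acta2, the smooth muscle alpha-actin gene, had 157, 148 and 130.2 FPKM in the Ctrl replicates and 265, 289 and 247 FPKM in the Med23KO replicates. It rose with no overlap (limma adjusted p = 0.0137, log2 fold change 0.88, SE 0.106). Lima1, which encodes the actin-bundling protein EPLIN, rose from 29.7 ± 3.55 to 47.0 ± 3.76 FPKM (SD, n = 3). Against these, the cytoplasmic gamma-actin gene Actg1 had 1184, 1260 and 1181 FPKM in the Ctrl replicates and 891, 925 and 943 FPKM in the Med23KO replicates. Each knockout value of Actg1 was lower, with a limma adjusted p of 0.0522 that missed the threshold. Vcl, the vinculin gene, had 68.2 ± 2.30 and 54.9 ± 2.57 FPKM (SD, n = 3; limma adjusted p = 0.107). Actb, the beta-actin gene, had 3160 ± 274 and 2780 ± 155 FPKM, and its log2 fold change of -0.18 was 0.12 under quantile normalization. Tagln, the transgelin gene, had 16.2 ± 2.23 and 17.7 ± 5.21 FPKM (SD, n = 3). The actin genes have near-identical copies, so their levels are uncertain to that extent. Acta2 lost its call without Ctrl replicate 2 (adjusted p = 0.0963) or without Med23KO replicate 1 (0.0540) or 2 (0.0997), and Lima1 kept its call only without Med23KO replicate 3 among the fits that left out 1 library. With no filter on low values Lima1 was not called (adjusted p = 0.0631).

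Striated-muscle genes known as SRF targets had the highest median log2 fold change of the 3 target lists, 1.10. Of 8 tested, 4 rose and 0 fell, against 1.49% and 1.42% of all tested genes, and 7 lay above 0. Another 6 of the 14 listed genes were below the filter of 1 FPKM. The cardiac alpha-actin gene Actc1 had 21.1, 9.77 and 3.98 FPKM in the Ctrl replicates and 60.8, 76.0 and 46.9 FPKM in the Med23KO replicates. The controls of Actc1 varied widely, and each knockout value was above them (log2 fold change 2.53, SE 0.484, limma adjusted p = 0.0410). Smyd1, a methyltransferase gene of sarcomere assembly, rose from 13.3 ± 3.70 to 30.2 ± 6.69 FPKM (SD, n = 3). The troponin C gene Tnnc1 and the myosin light chain gene Myl4 rose with log2 fold changes of 1.13 and 1.94. Acta1, the skeletal alpha-actin gene, was at 20.4 ± 8.54 and 41.6 ± 2.60 FPKM (SD, n = 3) and was not called (limma adjusted p = 0.0878). With no filter on low values only Tnnc1 of the 4 was called, and Actc1 (limma adjusted p = 0.0935), Myl4 (0.0539) and Smyd1 (0.0973) were not. All 4 calls were lost without Ctrl replicate 2 and without Med23KO replicate 2, 1 was kept without Med23KO replicate 1 (Tnnc1), and 2 were kept without Ctrl replicate 1 (Actc1 and Myl4) or 3 (Tnnc1 and Myl4).

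**Figure D4:**
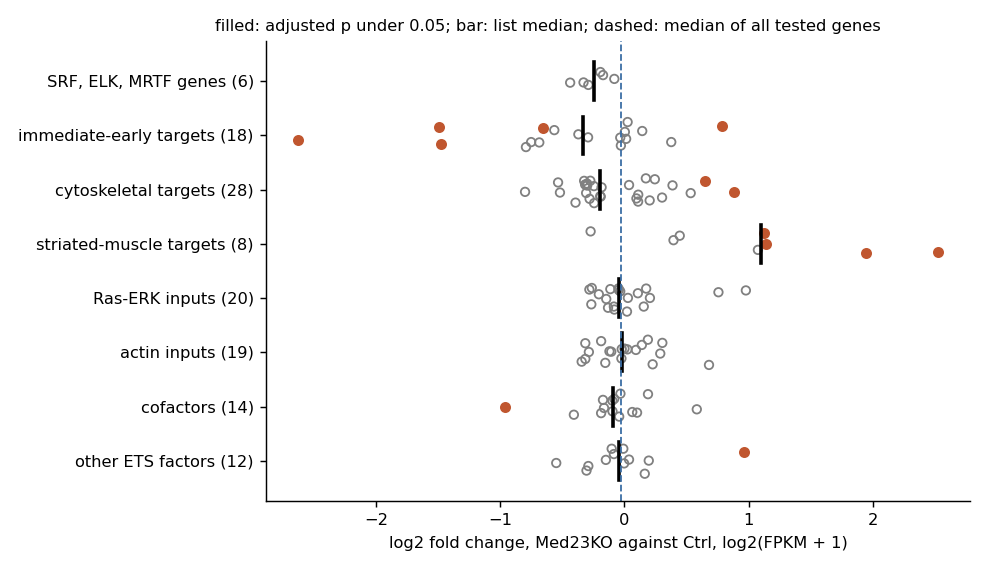
Log2 fold change (horizontal axis) of each tested gene of the 6 SRF, ELK and MRTF genes and of 7 lists, with list medians as black bars and the median of all tested genes, -0.03, as a dashed line. Filled points are past the threshold: the immediate-early list has 4 on the left and 1 on the right, and the striated-muscle list 4 on the right.

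The inputs to both cofactor families held no called gene. Of 20 genes of the Ras-ERK cascade, 0 passed, against 2.91% of all tested genes, and the median was -0.05. Mapk3, which encodes a kinase that phosphorylates ELK1, had means of 40.8 ± 6.33 and 38.8 ± 8.34 FPKM in Ctrl and Med23KO (SD, n = 3; limma adjusted p = 0.867). Map2k1, which encodes the ERK kinase MEK1, had 46.6, 39.5 and 36.6 FPKM in the Ctrl replicates and 104.9, 94.3 and 54.0 FPKM in the Med23KO replicates. Its knockout values were all higher, with Med23KO replicate 3 nearest to the controls, and the test missed the threshold (limma adjusted p = 0.0764), while without that library it was past it (0.00267). The adaptor gene Shc1 had 53.9 ± 6.86 and 93.9 ± 25.2 FPKM (SD, n = 3; limma adjusted p = 0.101). It too was past the threshold without Med23KO replicate 3 (0.00664).

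Of 19 tested genes that control actin assembly upstream of the MRTFs, 0 passed, against 2.91% of all tested genes, with a median of -0.02. Rhoa had 226 ± 16.6 and 209.6 ± 6.002 FPKM (SD, n = 3). The profilin gene Pfn2 had 19.8 ± 2.56 and 32.8 ± 7.56 FPKM (limma adjusted p = 0.101, and 0.00867 without Med23KO replicate 3). Cfl1, which encodes the actin-severing protein cofilin, had 678 ± 73.2 and 535 ± 65.5 FPKM (limma adjusted p = 0.194). Among 14 tested cofactors and repressors of SRF and the ternary complex factors, 1 fell, Med23 itself, against 1.42% of all tested genes. Myocd, the myocardin gene, had means of 0.0295 and 0.0233 FPKM, below the filter. Among 12 tested genes of other ETS-domain factors, Etv1 was the 1 called gene, against 2.91% of all tested genes. The list median was -0.05. Etv1 had a control mean of 14.7 ± 1.599 FPKM and a knockout mean of 29.7 ± 4.20 FPKM (limma adjusted p = 0.0197; SD, n = 3). Etv1 kept this call only without Med23KO replicate 3 among the fits that left out 1 library.

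CArG boxes in the promoter windows were set beside these values. Of 142 listed genes that are not cell type markers, counting a gene once per list, 113 matched a RefSeq window. Egr1, Egr3, Actb and Tagln were among those that did not, so they were not searched for a box. Across the matched genes, 15 held a box, with 18 boxes in all. Of these 15, 14 are on the 3 lists built from genes known as SRF targets, and Hopx is on the cofactor list, so this share is not a finding. The 30 bases around a box are shown for 7 of the genes whose box occurs in more than 1 listed gene. Of the genes shown, Lima1 and Actc1 rose and the others were not called. Filip1l, Dusp5 and Fhl2 also share a box with a listed gene, and their 30 bases are not shown. The sequences are from GRCm38.p6, on the gene's strand, with the box in capitals.
Egr2 (chr10:67537787-67537816, plus strand): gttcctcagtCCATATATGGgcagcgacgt
Actg1 (chr11:120348566-120348595, minus strand): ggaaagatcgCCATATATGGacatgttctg
Vcl (chr14:20929161-20929190, plus strand): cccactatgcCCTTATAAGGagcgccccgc
Lima1 (chr15:99820177-99820206, minus strand): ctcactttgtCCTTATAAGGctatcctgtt
Cnn2 (chr10:79988534-79988563, plus strand): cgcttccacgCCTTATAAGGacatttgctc
Actc1 (chr2:114052903-114052932, minus strand): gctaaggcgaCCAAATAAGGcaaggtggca
Hopx (chr5:77115187-77115216, minus strand): taacccgagtCCAAATAAGGaagctgggga

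Genes with the same box lay on the same side of 0 in some cases and not in others. Vcl, with a log2 fold change of -0.31, and Lima1, at 0.65, share the box CCTTATAAGG, as do the calponin gene Cnn2, at 0.25, and Filip1l, at 0.30. Egr2 and Actg1 share the box CCATATATGG, and both lay below 0, at -0.37 and -0.39. Actc1 and the SRF inhibitor gene Hopx share the box CCAAATAAGG, with Actc1 at 2.53 and Hopx at 0.58 (limma adjusted p = 0.321). Dusp5 and the LIM-domain gene Fhl2 share the box CCTTATATGG, at -1.49 and -0.53. Srf and Zfp36, which encodes an RNA-binding protein, share the box CCATAAAAGG, at -0.33 and 0.14. Of the genes in these comparisons, Lima1, Actc1 and Dusp5 were called. Of the 15 listed genes with a box, 2 rose (Actc1 and Lima1) and 1 fell (Dusp5), against 1.49% and 1.42% of all tested genes. Of the 15, 6 lay below 0 and 9 above 0, where 54.9% of all tested genes lay below 0. Egr1 and Egr3, which fell, had no window and are not in this count. All 14 listed striated-muscle genes had a window, and 3 held a box (Actc1, Acta1 and Dmd). Smyd1, Tnnc1 and Myl4, which rose, held no box in their windows. Sequence outside the windows was not searched, so whether SRF acts on these genes was not tested.

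Over all genes, 151 tested genes had a CArG box in a window and 8750 had windows without one. Of those with a box, 5 rose (3.31%) and 4 fell (2.65%). Of those without, 1.27% rose and 1.51% fell. The medians were -0.02 and -0.04, and these shares are a description with no test. The 9 called genes with a box, of which those outside the lists were chosen after their values were seen, included the Ras GTPase-activating gene Rasa4, which fell from 24.0 ± 1.43 to 11.6 ± 0.999 FPKM (SD, n = 3). Rnd3, which encodes a small GTPase, was higher in knockouts, at 41.6 ± 1.34 against 25.9 ± 2.69 FPKM (SD, n = 3). So was Ldb3, which encodes a protein of the sarcomere's Z-disc, at 2.43 ± 0.659 against 0.642 ± 0.181 FPKM (SD, n = 3). The control mean of Ldb3 lay below the filter of 1 FPKM, so it was tested only because of its knockout values.

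**Figure D5:**
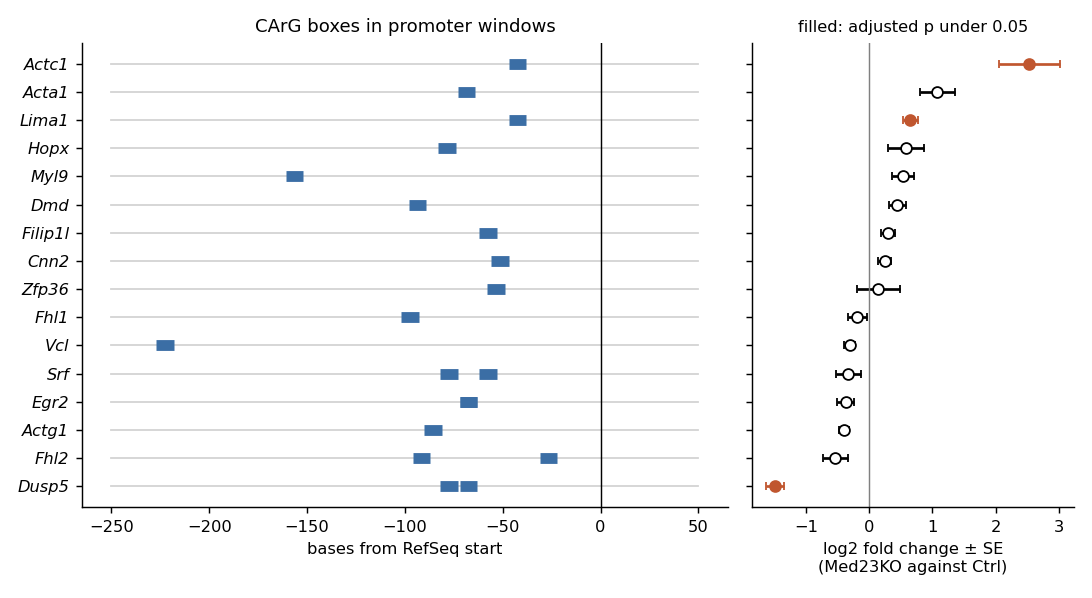
Position of each CArG box (blue) in the promoter windows of Srf and the 15 listed genes, in bases from the RefSeq start (left), and the gene's log2 fold change with its SE (right, filled where past the threshold). Boxes lie between 227 and 31 bases before a start, those of Fhl2 and Egr2 before different starts, and genes with a box lie on both sides of 0.

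Markers of other cells that a muscle sort can hold were measured beside these genes. Of 8 fibroblast and fibro-adipogenic progenitor markers, 7 were tested, 7 lay above 0 and 0 passed, with a median of 0.56. Of all tested genes, 54.9% lay below 0. The groups of 3 markers, Col3a1, Dcn and Lum, did not overlap with knockouts higher, against 10% of all tested genes. The summed level of the 8 markers was 157 to 221 FPKM in controls and 214 to 345 FPKM in knockouts, most of it Col3a1. Fibroblasts express Acta2, and the part of these cells in its rise was not tested. Smooth muscle and pericyte markers summed to 26.2 to 35.8 FPKM in controls and 23.7 to 32.7 FPKM in knockouts. Their defining gene Myh11 lay at 0.370 FPKM or less in each library. Of these 8 markers 4 were tested, with 0 called, 3 below 0 and 1 above 0. Among those below the filter, Abcc9 had means of 0.202 and 0.621 FPKM in Ctrl and Med23KO, and Rgs5 0.603 and 1.04 FPKM. For Abcc9 and Rgs5 the groups did not overlap, with knockouts higher. The part of these cells in the results on SRF targets was not tested. Endothelial markers, of cells in which Elk3 is known to be expressed, summed to 5.17 to 10.3 FPKM in controls and 4.88 to 7.67 FPKM in knockouts. Of 8 immune markers, the defining gene Ptprc was at 0.0896 FPKM or less in each library, and the list summed to 12.1 to 25.2 FPKM in controls and 11.9 to 38.2 FPKM in knockouts, most of it Lyz2.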

How the data were processed

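Strand-specific NEBNext libraries were made from poly(A) RNA of TRIzol extracts, per the labels' protocols. FastQC, cutadapt, STAR and Cuffdiff were run by the authors with mm10, per the submitters' processing notes. For their versions, the annotation and the strand setting, nothing is given in the sources used here. The authors deposited FPKM per library, and q-values of their Cuffdiff comparison, per the file headers. Count models do not suit FPKM and were not used; the depth is unknown. Genes that overlap a member, such as Uxt with Elk1, Cdk17 with Elk3 and Mfsd4a with Elk4, make its level uncertain to that extent.

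The 12336 genes that averaged 1 FPKM or more across libraries entered a limma fit (version 3.58.1, R 4.3.3) of log2(FPKM + 1) on genotype alone, using the trended prior. Tests were two-sided, and an adjusted p (Benjamini-Hochberg) below 0.05 was a call. The script was tested on simulated data. The members and 12 lists (182 symbols) were chosen with earlier results of these data known, so no list gives independent support. Named genes were the members, Med23, called list members, otherwise up to 4 per list by adjusted p, 13 genes named whatever their values (another is not reported here), and the 5 profiles nearest to Srf. Other list genes named were chosen after their values were seen. They were Actg1, Acta1, Cnn2, Filip1l, Fhl2, Zfp36, Hopx, Myocd, and the markers Pax7, Myod1, Itga7, Cdh15, Myh11, Ptprc, Lyz2, Rgs5 and Abcc9. Coordinates came from GENCODE vM21 of mm10 and promoter windows from RefSeq (GRCm38.p6); Mkl1 and Mkl2 were matched as Mrtfa and Mrtfb. Alternatives covered the pseudocount, filter, normalization, trend, library weights, a replicate block, each library left out, the authors' q-values and 1 mismatch in the CArG box.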

Additional observations from a re-analysis of the deposited data

How the results depend on the processing

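The log2 fold changes of the 6 genes stayed below 0 under all 16 alternatives. The number of the 6 called lower was 0 except with library weights, at 1 (Mkl2, limma adjusted p = 0.0379; the weight estimate stopped before convergence), and with the replicate number as a block, at 3: Srf (0.0142), Mkl1 (0.0439) and Mkl2 (0.0416). The labels do not say that the numbers pair the samples. Deviations of same-numbered libraries from their group means correlated at 0.44, -0.02 and 0.56 over genes. Whether same-numbered libraries were handled together is not stated, so the block fit rests on a pairing that is not known. Ctrl replicate 1 and Med23KO replicate 1 correlated best with each other, as did both replicates 3, and replicates 2 did not. Of the 12336 tested genes, the block gave 1180 higher and 1577 lower, and library weights 850 higher and 850 lower. Among the listed genes the block gave 19 higher and 29 lower, against 8 and 5 in the main fit.

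Genes higher, 184 at first, were 73 with no filter on low values, 298 under quantile normalization, 363 with median scaling, 850 with library weights and 1029 by the authors' q-values, and 3 to 754 with 1 library left out. Genes lower, 175 at first, were 84 with no filter, 850 with library weights and 897 by the authors' q-values, and 10 to 400 with 1 library left out. Listed genes called higher were 4 with no filter, 16 with library weights and 17 by the authors' q-values, and 0 to 11 with 1 library left out. Listed genes called lower were 8 under quantile normalization, 20 with library weights and 18 by the authors' q-values, and 0 to 12 with 1 library left out. With 1 mismatch allowed in the box, 10.4% of tested genes held one in place of 1.70%. Among uncalled genes the sign turned under quantile normalization for Fos (-0.025), Mcl1 (0.036) and Actb (0.12). It also turned with 1 library left out, over which the value ran from -0.23 to 0.24 for Fos, -0.079 to 0.015 for Mcl1, -0.11 to 0.27 for Tagln, -0.20 to 0.11 for Mapk3, -0.14 to 0.31 for Pax7, and -0.15 to 0.49 for Zfp36.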
